A study of Mus musculus with 12 samples.

Results

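The genes described here are the protein-coding mouse genes for splicing factors and heterogeneous nuclear ribonucleoproteins (hnRNPs). They were chosen by symbol alone, as genes beginning with Srsf, Hnrnp, Sf3a, Sf3b, Snrp, U2af or Prpf. This gave 67 of the 54532 genes in the count table. They fell into 6 families: 11 SR proteins, 20 hnRNPs, 11 Snrp proteins of the small nuclear ribonucleoproteins (snRNPs), 9 subunits of SF3a and SF3b, 3 U2af subunits and 13 Prpf proteins. The symbol list was drawn up with earlier results of these data known. Of the 67 members, 65 passed the filter on low counts and were tested. Srsf12 had 4 counts in all, in 1 of the 12 libraries, and U2af1l4 had 0 counts in every library. A count of 0 allows a level of up to 0.128 to 0.334 CPM (counts scaled to library size) in a library (3 counts, counting error only).

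The libraries came from cultured mouse keratinocytes of 1 genotype, given in the labels as WT DP-BirA(1-584). Every group, the unwounded controls included, carried the fusion DP(1-584)-BirA, in which part of desmoplakin, a protein of desmosomes at the cell border, is joined to the biotin ligase BirA. All cells received calcium, doxycycline at 2 µg/mL to induce the fusion, and a biotin pulse of 16 h, and were either scratch wounded or left unwounded. Translating material from a sucrose gradient was put over neutravidin. RNA bound to it is called cortical here, and RNA left behind is called total, so that total means depleted of cortical material. Total and cortical RNA of unwounded and of wounded cells made 4 groups of 3 libraries each, labelled as biological replicates. The sources used here do not give the origin of the cells, whether they are 1 clone, or the promoter that drives the fusion.

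Library totals ran from 8980013 to 23457548 counts. Wounded total replicate 1 stood apart, since 13117 genes had counts there and 14393 to 16867 did in the rest. Many results that use it, but not all, are given with and without it. Keratinocyte markers fixed for the check were all detected. Summed fibroblast, immune, melanocyte and endothelial markers reached at most 1.44 FPKM (fragments scaled for gene length and library size) in any library. The sum of 6 basal markers differed between groups, at 4034 to 4704 FPKM in unwounded total and 6449 to 6504 in unwounded cortical libraries, and at 7341 to 9084 and 9146 to 9350 in the wounded ones. The sum of 6 suprabasal markers ran from 3468 to 4510 FPKM in unwounded total and 2541 to 2680 in unwounded cortical libraries, and from 3152 to 6567 and 2578 to 2620 in the wounded ones. Single suprabasal markers did not all follow their sum. In wounded cells Dsg1a and Krt1 had cortical-to-total log2 changes above 0, and Krt10, Ivl, Sfn and Krtdap below 0. The part of these marker shifts in the results below was not tested. In a pool of cells, fewer cells of a type and less RNA per cell cannot be told apart, and each value is a share of its library, not an amount per cell.

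Splicing removes introns from pre-mRNA in the spliceosome, which is built from the U1, U2, U4, U5 and U6 snRNPs. Each of U1, U2, U4 and U5 carries a ring of Sm proteins, and U6 carries a related Lsm ring. SR proteins bind exonic enhancers through RNA recognition motifs and recruit snRNPs and U2AF through domains rich in arginine and serine. HnRNPs coat nascent RNA and often repress exons, although many act either way and some also bind mRNA in the cytoplasm. Many SR protein and hnRNP genes limit their own output by splicing in poison exons, which send the transcript to nonsense-mediated decay. These libraries measured the mRNAs that encode the splicing proteins, in material that sedimented as translating, and neither the proteins nor splicing itself.

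RefSeq promoter windows (build GRCm38.p6, 250 bases before to 50 after the annotated start) were found for 58 of the 67 members. The GC box (GGGCGG, or CCGCCC on the other strand) was present in 40 of the 58 member genes, or 69.0%, against 38.2% of 27025 genes in the table. SR protein genes held it in 10 of 11 cases and hnRNP genes in 14 of 18. The ETS core (CCGGAAG or CTTCCGG) was present in 20 of 58 members, or 34.5%, against 9.93% of all genes, and in 6 of 7 matched SF3a and SF3b genes. The CCAAT box (CCAAT or ATTGG) was in 13 of 18 hnRNP genes and in 29 of 58 members, against 41.1% of all genes. TATAAA or its complement was in 10.3% of members against 15.7% of all genes. These are matches of letters and not mapped binding sites. The motifs can overlap one another in GC-rich sequence, and the groups were not matched for base composition.

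The 150 bases before the start are printed for 7 members that later results turn on. Capitals mark the GC box on either strand.
Srsf2 (chr11:116853095-116853244, strand -): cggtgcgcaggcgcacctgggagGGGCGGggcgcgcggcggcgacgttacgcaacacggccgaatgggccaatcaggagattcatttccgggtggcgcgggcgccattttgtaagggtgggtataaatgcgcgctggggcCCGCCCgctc
Srsf6 (chr2:162931358-162931507, strand +): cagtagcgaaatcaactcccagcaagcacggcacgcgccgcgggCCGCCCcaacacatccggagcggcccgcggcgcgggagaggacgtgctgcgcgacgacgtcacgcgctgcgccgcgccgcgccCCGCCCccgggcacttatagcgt
Srsf7 (chr17:80207306-80207455, strand -): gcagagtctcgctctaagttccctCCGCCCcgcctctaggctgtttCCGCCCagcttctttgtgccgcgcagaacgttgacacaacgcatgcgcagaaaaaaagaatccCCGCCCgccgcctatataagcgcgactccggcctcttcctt
Srsf9 (chr5:115327027-115327176, strand +): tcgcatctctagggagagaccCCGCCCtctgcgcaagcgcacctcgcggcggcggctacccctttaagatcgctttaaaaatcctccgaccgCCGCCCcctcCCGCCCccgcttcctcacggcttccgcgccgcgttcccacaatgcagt
Hnrnpab (chr11:51606882-51607031, strand -): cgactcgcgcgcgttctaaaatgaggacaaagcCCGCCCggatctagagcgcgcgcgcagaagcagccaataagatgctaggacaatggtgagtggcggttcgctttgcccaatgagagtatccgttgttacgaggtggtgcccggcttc
Snrpe (chr1:133610281-133610430, strand -): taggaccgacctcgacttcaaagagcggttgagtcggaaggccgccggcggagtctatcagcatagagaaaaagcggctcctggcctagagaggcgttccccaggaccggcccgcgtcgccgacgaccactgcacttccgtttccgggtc
Prpf8 (chr11:75486627-75486776, strand +): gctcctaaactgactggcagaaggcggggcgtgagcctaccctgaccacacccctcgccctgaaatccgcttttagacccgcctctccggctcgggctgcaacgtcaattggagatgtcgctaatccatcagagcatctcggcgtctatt
The windows of Srsf2, Srsf6, Srsf7 and Srsf9 each held 2 or 3 GC boxes, that of Hnrnpab held 1, and those of Snrpe and Prpf8 held 0. No ETS core lay in any of the 7 printed windows, although the full windows of Srsf7 and Snrpe held the motif. Snrpe does not stand for its family, since 5 of 9 matched Snrp genes, Snrpd2 and Snrpd3 among them, held a GC box in the full window. Of the 150 bases printed for Snrpe, 31 lay in annotated exons. Their GC content ran from 58.0% in Hnrnpab to 74.7% in Srsf6.

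By mean deposited FPKM over the 12 libraries, the most abundant Snrp mRNAs were Snrpd1 at 370 (range 268 to 571) and Snrpd2 at 369 (253 to 667), both for Sm ring proteins, and their ranges overlapped. They were followed by Snrpf at 260, Snrpg at 202 and Snrpe at 159, also of the ring. Hnrnpa1, an abundant repressor of exon inclusion, led the hnRNPs at 182 FPKM (171 to 197). U2af1, which reads the AG at the 3′ splice site, stood at 148, against 19.1 for its partner U2af2, which binds the polypyrimidine tract. Srsf9 led the SR proteins at 89.0, Sf3b5 the SF3 subunits at 69.1 and Prpf6 the Prpf proteins at 18.7. Hnrnpr was the lowest tested member by FPKM, at 0.590, although its mean count was above that of Srsf4. The length used is that of all merged exons as deposited, so these levels understate genes with long alternative exons.

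Together the members took 0.972% ± 0.0182 of all counts in unwounded total libraries (SD, n = 3) and 0.856% ± 0.00985 in unwounded cortical ones. In wounded cells they took 0.840% ± 0.0549 of total and 0.800% ± 0.00770 of cortical counts. The SR proteins alone took 0.0910% ± 0.00300, 0.0782% ± 0.00151, 0.0537% ± 0.0117 and 0.0594% ± 0.00114 in the same order. The Snrp proteins took 0.345% ± 0.0288 in unwounded total and 0.331% ± 0.0363 in wounded total libraries, against 0.255% ± 0.00275 and 0.242% ± 0.00502 in the cortical ones. The SR share was thus lowest in the wounded groups and the Snrp share in the cortical groups.

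The comparisons were cortical against total RNA within unwounded and within wounded cells, wounded against unwounded within each fraction, and the change of the cortical-to-total ratio with wounding, 5 in all. Each used edgeR's quasi-likelihood test with Benjamini-Hochberg adjustment over 13571 genes, and a gene is said to be called, to rise or to fall where its adjusted p was under 0.05. In unwounded cells 1 member was called higher and 20 lower in cortical than in total RNA, or 30.8% of the 65 lower, where 6.62% of all genes tested were called higher and 7.59% lower. In wounded cells 3 were higher and 14 lower, where 7.62% and 8.03% of all genes were. With wounding, 2 members rose and 18 fell in total RNA, or 27.7% of the 65 lower, where 8.39% of all genes rose and 7.20% fell. In cortical RNA 0 rose and 2 fell, where 1.60% and 0.884% of all genes did, and 14 of the 65 had an unadjusted p under 0.05. Counts at an unadjusted p, here and below, stand without the share of all genes in the same comparison. They are not read as an excess. In the cortical-to-total comparison of unwounded cells 3616 of the 13571 genes tested had such a p-value. That figure is not a background for the other comparisons, whose own shares may differ. The comparisons of unwounded cortical and of wounded total RNA share the unwounded total libraries, so their values are set side by side without an overlap. Every member called in the cortical-to-total and wounding comparisons had groups whose CPM values did not overlap. Where this is stated for a called gene below, it adds nothing to the call. The share of such genes among all genes is not given here.

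**Figure D1:**
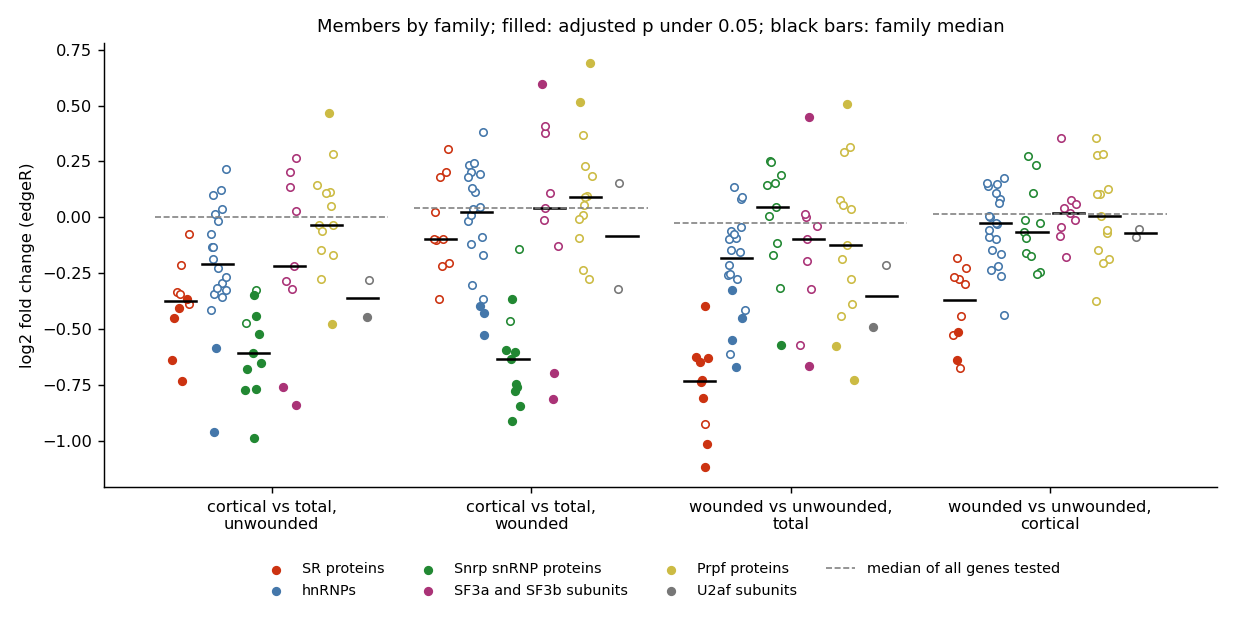
Log2 fold change (edgeR, y axis) of the 65 tested members in the 4 comparisons (x axis), coloured by family, with filled points for adjusted p under 0.05, black bars for family medians and dashed lines for the median of all genes tested. The Snrp proteins lie lowest in both cortical-to-total comparisons (medians -0.61 and -0.63), and the SR proteins lie lowest in both wounding comparisons (medians -0.73 and -0.37).

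SR proteins fell together with wounding in the total fraction. Of 10 tested SR mRNAs, 9 fell, 0 rose, and all 10 had log2 fold changes below 0, with a median of -0.73 against -0.03 for all genes tested. Of all genes 7.20% fell and 8.39% rose. The exception among the SR mRNAs was Srsf4, the lowest-expressed of them, at -0.92 (SE 0.40, adjusted p = 0.136), which reads 1.72 to 8.77 CPM in total libraries. Without wounded total replicate 1 all 10 SR mRNAs fell, where 11.5% of all genes did.

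Srsf2, also called SC35, which binds exonic enhancers and marks nuclear speckles, had 50.9, 41.3 and 43.0 CPM in the unwounded total libraries and 28.7, 20.6 and 13.1 in the wounded total ones. It lies at chr11:116849901-116853094 (GRCm38, minus strand). All 3 wounded values were below all 3 unwounded ones, and replicate 1 was the highest of the wounded. The log2 fold change was -1.12 (SE 0.22, adjusted p = 0.00226), and -1.42 without that library (adjusted p = 5.02e-06). Its exons overlap those of Mettl23 and Mfsd11 on the other strand, which non-directional libraries cannot separate.

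Srsf6, at chr2:162931528-162937121 and studied as a growth-promoting splicing factor in skin, had 76.7, 76.1 and 80.6 CPM in unwounded total and 59.8, 58.4 and 57.9 in unwounded cortical libraries. After wounding it had 41.9, 41.6 and 32.3 CPM in total and 51.0, 44.1 and 47.9 in cortical libraries. The 4 groups did not overlap one another. Its log2 fold change with wounding in total RNA was -1.01 (SE 0.11, adjusted p = 3.03e-05), a fall of 50.4%. The order of the fractions turned with wounding, cortical below total in unwounded cells and above it in wounded cells. The first of these passed the test at -0.41 (adjusted p = 0.0232) and the second did not, at 0.31 (adjusted p = 0.0830).

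Srsf7, which also acts in mRNA export, went from 87.6, 88.1 and 83.1 CPM in unwounded total to 57.6, 48.5 and 41.6 CPM in wounded total libraries, a log2 change of -0.81 (SE 0.12, adjusted p = 3.59e-04). Its cortical values were 48.7, 50.3 and 57.0 CPM unwounded and 35.6, 39.9 and 39.3 CPM wounded, so each wounded group sat below its unwounded counterpart. In the cortical fraction the change of -0.44 missed the threshold (adjusted p = 0.0652). The other SR mRNAs that fell in total RNA were Srsf5 (-0.73), Srsf10 (-0.73), Srsf9 (-0.65), Srsf11 (-0.63), Srsf1 (-0.62) and Srsf3 (-0.40), the last a shuttling factor that couples splicing to export.

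In cortical RNA the wound response of the SR mRNAs ran the same way but 2 of 10 passed the test, where 0.884% of all genes fell. Srsf10, an atypical SR protein that represses splicing when dephosphorylated, had 73.6, 69.3 and 75.5 CPM in unwounded cortical libraries and 46.9, 38.7 and 54.6 CPM in wounded cortical libraries. Its log2 fold change was -0.64 (SE 0.13, adjusted p = 0.0130). Srsf1, the founding SR protein, had 109, 99.3 and 110 CPM against 67.1, 79.8 and 75.9 CPM, a log2 fold change of -0.51 (SE 0.11, adjusted p = 0.0199). Its exons overlap those of Gm11508 on the other strand. Neither gene's groups overlapped, and both also fell in total RNA. All 10 SR mRNAs were below 0 here, with a median of -0.37 against 0.02 for all genes, and 7 had an unadjusted p under 0.05. Without wounded total replicate 1, which is in neither group but enters the shared estimate of spread, 4 of 10 fell and 9 had an unadjusted p under 0.05, where 3.60% of all genes fell. Leaving out 1 library could remove both calls, which happened for replicates 1 and 3 of unwounded cortical and replicates 1 and 2 of wounded cortical RNA, when 0 members were called.

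**Figure D2:**
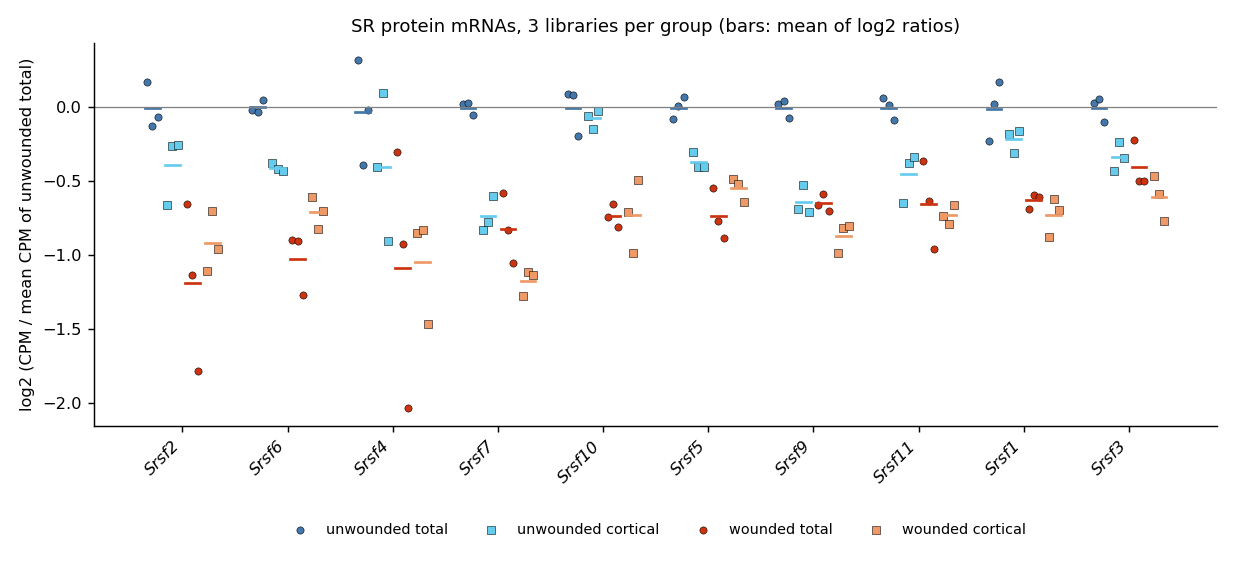
CPM of the 10 tested SR protein mRNAs in each of the 12 libraries, as log2 of the ratio to the mean of the unwounded total libraries (y axis), with genes on the x axis in order of their change with wounding in total RNA and short bars for group means. Wounded total values (red circles) of all genes but Srsf4 lie below their unwounded total values (blue circles), and for Srsf6 the wounded cortical values lie above the wounded total ones.

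The cortical-to-total comparison of the SR mRNAs differed in its calls between unwounded and wounded cells. In unwounded cells 5 of 10 were lower in the cortical fraction, where 7.59% of all genes were. These were Srsf7 (-0.73), Srsf9 (-0.64), Srsf11 (-0.45), Srsf6 (-0.41) and Srsf5 (-0.37), and the median of the 10 was -0.38. In wounded cells 0 of 10 were called by edgeR and 3 had an unadjusted p under 0.05. DESeq2 called 1 lower, limma-trend on FPKM called 0, and voom with library quality weights called 2 higher and 2 lower. The shares of all genes called by these other tools are not given here. With wounded total replicate 1 left out, edgeR called 3 of 10 higher and 0 lower, where 12.1% and 12.6% of all genes were. The wounded median was -0.10, and 0.04 without that library. As an offset from all genes tested, this median stood at -0.14, and at -0.15 when scaled by library size alone.

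The change of the ratio itself was tested by the interaction. edgeR called 0 of the 65 members, where 0.125% of all genes tested were called either way, and 11 members had an unadjusted p under 0.05. DESeq2 called 1, Srsf6, at 0.66 (SE 0.18, adjusted p = 0.0401), and voom with library quality weights called 10. The shares of all genes called by these tools are not given here. With the weights voom also called more members than edgeR in each of the other comparisons. All 10 SR mRNAs had interaction log2 values above 0, with a median of 0.36 against 0.02 for all genes, and for Srsf6 edgeR gave 0.71 (SE 0.16, adjusted p = 0.183). Without wounded total replicate 1, edgeR called 9 members, all higher, where 1.06% of all genes were called higher. These were the SR mRNAs Srsf2 (0.89), Srsf6 (0.77) and Srsf5 (0.64), the hnRNPs Hnrnpl (0.61), Hnrnpab (0.53) and Hnrnpa0 (0.52), the SF3b subunits Sf3b4 (0.92) and Sf3b3 (0.77), and Prpf38a (0.73). Each interaction call thus depended on 1 library of the 3 in its group or on the tool. The interaction uses the same wounded total and unwounded total libraries as the wound response of total RNA, so it is not a separate observation of the SR fall.

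The Snrp mRNAs showed the other pattern, lower in cortical than in total RNA with and without a wound. In unwounded cells 9 of 11 were lower, with a median log2 fold change of -0.61 against 0.00 for all genes, and in wounded cells 9 of 11, with a median of -0.63 against 0.04. Of all genes 7.59% were lower in unwounded and 8.03% in wounded cells. The 9 Snrp mRNAs were the same genes, and the 2 comparisons share no library. They were Snrpb, Snrpd1, Snrpd2, Snrpd3 and Snrpe of the Sm ring, Snrpa and Snrpc of the U1 snRNP, and Snrpa1 and Snrpb2 of the U2 snRNP. The exons of Snrpa overlap those of BC024978 on the other strand. Snrpf and Snrpg complete the ring and gave -0.47 and -0.32 in unwounded and -0.14 and -0.46 in wounded cells, and none of these 4 values passed.

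Snrpd3, at chr10:75517551-75537381, had 341, 405 and 339 CPM in unwounded total against 210, 180 and 157 CPM in unwounded cortical libraries, and 257, 316 and 299 CPM in wounded total against 153, 150 and 183 CPM in wounded cortical libraries. Every cortical value was below every total value of either state. The log2 fold changes were -0.99 (SE 0.13, adjusted p = 1.95e-04) and -0.85 (SE 0.13, adjusted p = 7.22e-04). Its exons overlap those of Gucd1 on the other strand.

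Snrpd2, at chr7:19149722-19153542, which pairs with Snrpd1 before the ring closes on the snRNA, had 1031, 1339 and 1063 CPM in unwounded total and 666, 667 and 676 CPM in unwounded cortical libraries. In wounded cells it had 775, 1563 and 1735 CPM in total and 710, 708 and 746 CPM in cortical libraries. Replicate 1 of wounded total lay far below the other two and close to the cortical values, although the groups did not overlap. The log2 fold change was -0.77 in unwounded cells (SE 0.20, adjusted p = 0.0166). In wounded cells it was -0.91 (SE 0.20, adjusted p = 0.00679), and -1.19 without that library.

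Snrpc, a U1 protein at the 5′ splice site, had 132, 133 and 107 CPM in unwounded total against 79.4, 72.6 and 65.7 CPM in unwounded cortical libraries (-0.77, adjusted p = 4.87e-04). In wounded cells it had 109, 108 and 113 CPM against 72.4, 64.6 and 58.2 CPM (-0.76, adjusted p = 6.99e-04). Snrpe had 219, 319 and 319 CPM in wounded total against 164, 167 and 168 CPM in wounded cortical libraries (-0.78, adjusted p = 0.00242). A pseudogene of Snrpe held 8.11% as many counts as the gene, and reads could have been split between them. The remaining called Snrp mRNAs were lower by 0.35 to 0.68 log2 units in unwounded and by 0.36 to 0.75 in wounded cells.

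With wounding, by contrast, 1 of the 11 Snrp mRNAs fell in total RNA and 0 were called in cortical RNA, where 2 had an unadjusted p under 0.05. Of all genes 7.20% fell in total RNA, and 1.60% rose and 0.884% fell in cortical RNA. The Snrp mRNA that fell was Snrpf, from 247, 378 and 278 CPM to 145, 217 and 245 CPM (-0.57, SE 0.17, adjusted p = 0.0281). Its exons overlap those of Ccdc38 on the other strand. The Snrp median with wounding in total RNA was 0.05. Without wounded total replicate 1, 11 of 11 Snrp mRNAs were lower in cortical than in total RNA of wounded cells, where 12.6% of all genes were. In that fit 4 rose and 1 fell with wounding in total RNA, where 13.4% and 11.5% of all genes did. The unwounded count of 9 dropped to 5 without unwounded total replicate 2 or without unwounded cortical replicate 1 or 2.

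**Figure D3:**
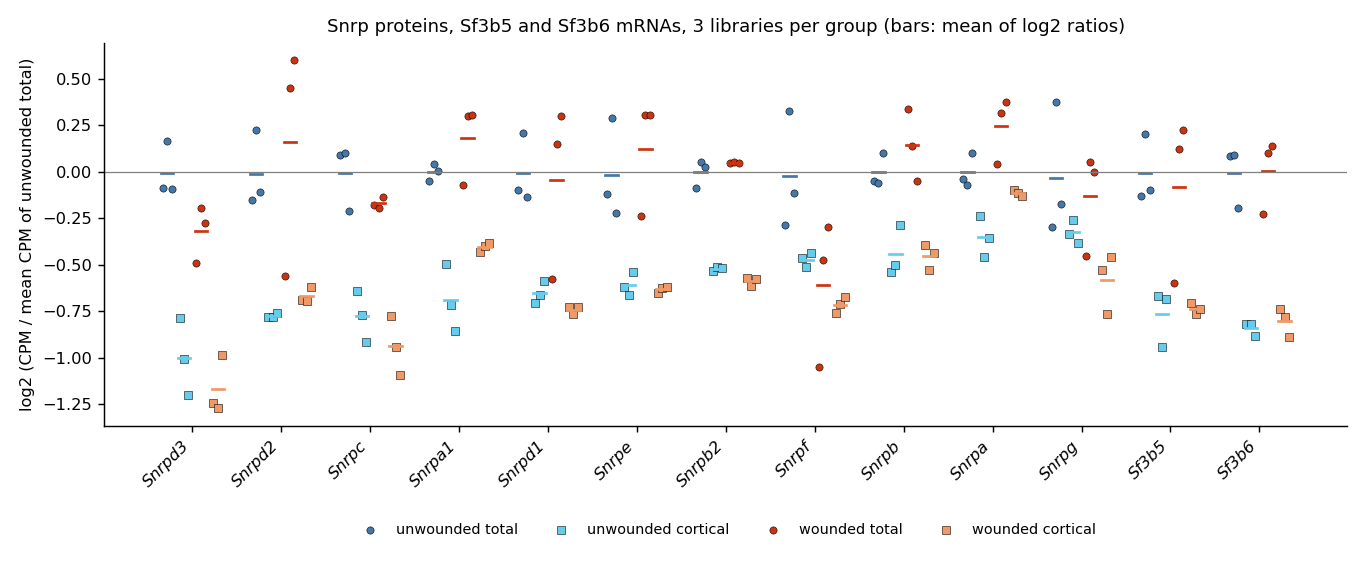
CPM of the 11 Snrp mRNAs and of Sf3b5 and Sf3b6 in each of the 12 libraries, as log2 of the ratio to the mean of the unwounded total libraries (y axis), with genes on the x axis and short bars for group means. Cortical values (squares) lie below total values (circles) for most genes in both states, and wounded total replicate 1 is the low red circle of Snrpd2, Snrpd1, Sf3b5 and Snrpf.

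The SF3a and SF3b subunits, which with U2 snRNA grip the branch point, split by subunit. The smallest, Sf3b6 (also p14, which contacts the branch adenosine) and Sf3b5, were lower in the cortical fraction in both states. Sf3b6 had 113, 114 and 93.6 CPM in unwounded total against 60.7, 60.6 and 58.1 CPM in unwounded cortical libraries (-0.84, SE 0.12, adjusted p = 2.57e-04), and 91.6, 115 and 118 CPM against 64.3, 62.3 and 57.9 CPM in wounded cells (-0.81, adjusted p = 4.92e-04). Its total and cortical values never overlapped. Sf3b5 gave -0.76 and -0.70. The large scaffold Sf3b3 was higher in cortical RNA of wounded cells, with 55.1, 58.2 and 54.5 CPM against 54.2, 31.3 and 25.6 CPM (0.60, SE 0.20, adjusted p = 0.0485). Replicate 1 of wounded total lay just below the lowest cortical value, and the change was 0.97 without it. Its exons overlap those of Cog4 on the other strand. Sf3b1, the subunit most often mutated in blood cancers, gave 0.27 and 0.38 without passing (adjusted p = 0.196 and 0.0565).

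With wounding, Sf3b2 rose in total RNA from 145, 148 and 189 CPM to 197, 211 and 249 CPM (0.45, SE 0.12, adjusted p = 0.0163), and its groups did not overlap. Sf3b4 fell by 0.66 on the log2 scale (adjusted p = 0.0292), and its exons overlap those of Gm17690 on the other strand. U2af1 was lower in cortical than in total RNA of unwounded cells (-0.44, adjusted p = 0.0221), and U2af2 fell with wounding in total RNA, from 90.4, 90.5 and 105 CPM to 64.4, 70.6 and 68.7 CPM (-0.49, adjusted p = 0.00414).

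Of 20 tested hnRNP mRNAs, 2 were lower in cortical RNA of unwounded cells (7.59% of all genes were), 3 in wounded cells (8.03% of all genes) and 4 fell with wounding in total RNA (7.20% of all genes), and 0 were higher in any of these. In cortical RNA with wounding edgeR called 0, and 3 had an unadjusted p under 0.05. Without wounded total replicate 1, 7 were lower in cortical RNA of unwounded cells, 4 were higher and 4 lower in wounded cells, and 8 fell with wounding in total RNA. The matching shares of all genes were 12.3% lower in unwounded cells, 12.1% higher and 12.6% lower in wounded cells, and 11.5% lower with wounding. With every library, the medians were -0.21, 0.02, -0.18 and -0.03 in the order of the comparisons above. Hnrnpa1, the most abundant, had 566, 628 and 585 CPM in unwounded total and 584, 623 and 554 in unwounded cortical libraries. After wounding it had 550, 586 and 536 CPM in total and 566, 590 and 571 in cortical libraries. Its 4 groups overlapped throughout, and its log2 fold changes lay between -0.09 and 0.05.

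Hnrnpab had the largest log2 fold changes of the 20 hnRNPs in both cortical-to-total comparisons and with wounding in total RNA. The gene, at chr11:51600100-51606847, encodes a binder of AU-rich RNA also studied in the transport of mRNA. It had 411, 376 and 350 CPM in unwounded total and 197, 196 and 191 in unwounded cortical libraries. After wounding it had 269, 232 and 214 CPM in total and 163, 174 and 160 in cortical libraries. The total values did not overlap the cortical values of the same state, and the wounded values lay below the unwounded ones in each fraction. The cortical-to-total change was -0.96 (SE 0.11, adjusted p = 3.47e-05) in unwounded and -0.53 (SE 0.11, adjusted p = 0.00356) in wounded cells. With wounding it fell by 0.67 on the log2 scale in total RNA (adjusted p = 5.02e-04), while the change of -0.23 in cortical RNA did not pass (adjusted p = 0.263). Its exons overlap those of Phykpl on the other strand.

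Hnrnpc, which binds uridine tracts in nascent RNA, was lower in cortical RNA in both states (-0.58 and -0.40), and Hnrnpa2b1, a binder of trafficking signals in mRNA, in wounded cells (-0.43, adjusted p = 0.0193). Hnrnpa2b1 in unwounded cells gave -0.34 (adjusted p = 0.0562). Hnrnpd (-0.55), Hnrnpl (-0.45) and Hnrnpk (-0.33) fell with wounding in total RNA. Their exons overlap those of Gm17092, Gm44702 and Rmi1, in that order, on the other strand. Hnrnpk passed narrowly (adjusted p = 0.0450). With every library, the remaining hnRNPs, among them Hnrnpu, Hnrnpm, Hnrnpf and both Hnrnpul genes, passed in none of the 4 comparisons.

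The Prpf proteins, which include the core and assembly factors of the U4/U6.U5 tri-snRNP, had 2 members higher and 0 lower in cortical RNA of wounded cells. Of all genes 7.62% were higher and 8.03% lower there. In unwounded cells 1 of 13 was called each way, or 7.69%, near the 6.62% higher and 7.59% lower of all genes. In wounded cells 4 were higher and 1 lower once wounded total replicate 1 was left out, where 12.1% and 12.6% of all genes were. Prpf8, at chr11:75486816-75509449, which forms the heart of the catalytic centre, was higher in cortical RNA in both states. It had 39.7, 35.6 and 43.5 CPM in unwounded total against 66.4, 48.5 and 48.4 CPM in unwounded cortical libraries (0.46, SE 0.14, adjusted p = 0.0369). In wounded cells it had 46.5, 36.5 and 40.4 CPM against 56.5, 55.3 and 64.2 CPM (0.51, SE 0.14, adjusted p = 0.0216). Neither pair of groups overlapped. Prpf4, a U4/U6 protein, was higher in cortical RNA of wounded cells, with 15.8, 23.1 and 17.8 CPM against 12.5, 12.6 and 9.99 CPM (0.69, SE 0.19, adjusted p = 0.0211). Its interaction of 0.72 did not pass (adjusted p = 0.410). Prpf31, also of U4/U6, was lower in cortical RNA of unwounded cells (-0.48, adjusted p = 0.0356), and its exons overlap those of Gm15927 on the other strand.

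With wounding in total RNA, Prpf6, which bridges U5 and U4/U6, rose from 52.4, 58.9 and 65.3 CPM to 78.3, 87.1 and 85.4 CPM (0.51, SE 0.11, adjusted p = 0.00528). Prpf39, a U1-associated factor, fell from 16.3, 14.0 and 15.7 CPM to 11.7, 8.14 and 7.97 CPM (-0.73, SE 0.20, adjusted p = 0.0227), and its exons overlap those of Fkbp3. Prpf38a fell by 0.57 (adjusted p = 0.0154). The groups of these 3 genes did not overlap, which held for all 20 members called in this comparison. The family median was -0.12 in this comparison, and -0.03 in the cortical-to-total comparison of unwounded cells. The latter stood at -0.03 relative to all genes, both as reported and when scaled by library size alone.

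**Figure D4:**
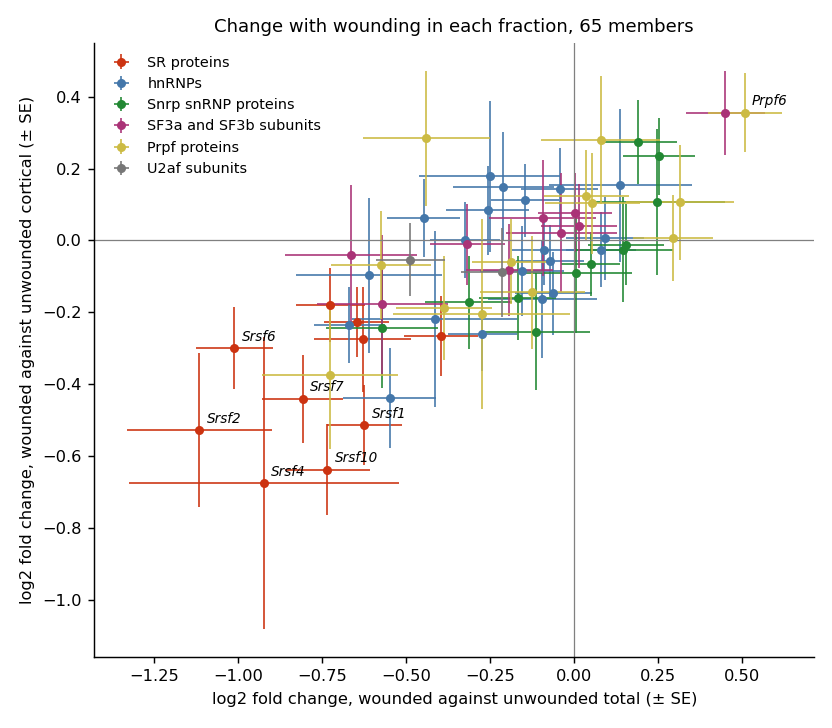
Log2 fold change with wounding in total RNA (x axis) against that in cortical RNA (y axis) for the 65 tested members, coloured by family, with bars of 1 SE. The SR proteins occupy the lower left, with all 10 below 0 on both axes, and Prpf6 lies at the upper right at 0.51 and 0.36.

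The cortical-to-total changes of the members followed the length of the coding sequence. The Snrp mRNAs have a median longest coding sequence of 378 bases, the SR mRNAs 772.5, the hnRNPs 1303.5, the SF3 subunits 1503 and the Prpf mRNAs 1995, against 1383 for all protein-coding genes tested. The shortest, Snrpg, has 228 bases and the longest, Prpf8, has 7005. Across the 65 members Spearman's rho between coding length and the log2 fold change was 0.79 in unwounded and 0.69 in wounded cells, and across 11482 protein-coding genes it was 0.48 in both. The wounding comparisons gave 0.08 in total and 0.29 in cortical RNA across members, and -0.03 and -0.00382 across protein-coding genes. The values across members depended on the Snrp family. Across the 54 members outside it, rho was 0.73 in unwounded and 0.54 in wounded cortical-to-total comparisons. With wounding, those 54 gave 0.35 in total and 0.38 in cortical RNA. These values are across genes, which share libraries and are not independent, and they carry no test.

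**Figure D5:**
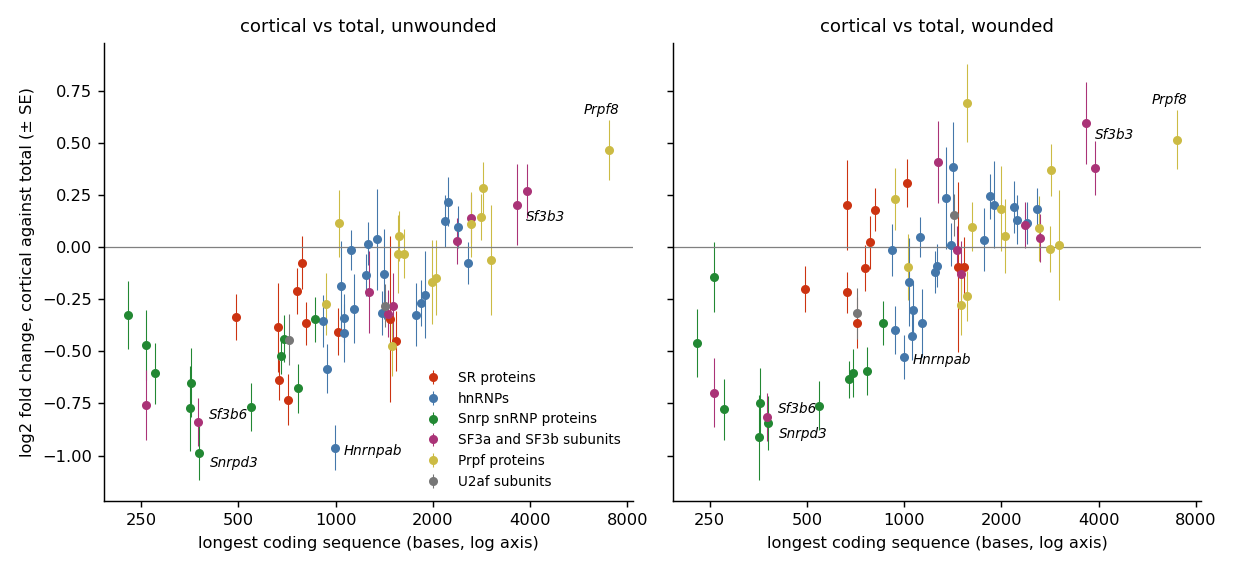
Log2 fold change of cortical against total RNA (y axis, bars of 1 SE) by the longest annotated coding sequence in bases (x axis, log scale) for the 65 tested members in unwounded (left) and wounded cells (right), coloured by family. Short coding sequences such as Snrpd3 and Sf3b6 lie lowest and Prpf8, the longest, lies among the highest, while Hnrnpab lies below members of like length in unwounded cells.

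Another fit removed a trend on the merged-exon length of each gene from each library. This is not the coding length above, as Snrpd3 has 3442 merged-exon and 378 coding bases. A trend on coding length was not removed, and its part in the calls was not tested. In the merged-exon fit 7 of 11 Snrp mRNAs were called lower in the cortical fraction of unwounded cells and 9 of 11 in wounded cells. Of all genes tested, 732 were called higher and 711 lower in unwounded cells, against 898 and 1030 with no trend removed. In wounded cells 365 were called higher and 1094 lower, against 1034 and 1090. The higher calls of Prpf8 (adjusted p = 0.134 and 0.198), Prpf4 (0.101) and Sf3b3 (0.377) were lost. With wounding in total RNA 8 of 10 SR mRNAs still fell. Of all genes 1909 rose and 664 fell in that fit, against 1139 and 977 with no trend removed. Scaling by library size alone raised the median of all genes by 0.19 in unwounded and 0.21 in wounded cortical-to-total comparisons. In each of them 7 of 11 Snrp mRNAs were called lower, where 469 and 520 of all genes were.

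GENCODE M21 annotates a transcript for nonsense-mediated decay in 9 of the 10 tested SR genes, all but Srsf10, in 10 of 20 hnRNP genes, 7 of 13 Prpf genes, 4 of 11 Snrp genes, 1 of 9 SF3 genes and both tested U2af genes. This is 50.8% of the tested members, against 29.3% of all protein-coding genes tested. The counts pool the isoforms of a gene, so whether productive or poison-exon transcripts changed was not tested.

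Splicing genes outside the symbol rule were counted in 5 lists, of which 176 genes were tested. In unwounded cells 9 were higher and 29 lower in cortical RNA, or 5.11% and 16.5%, where 6.62% and 7.59% of all genes were. In wounded cells 21 were higher and 26 lower, or 11.9% and 14.8%, where 7.62% and 8.03% of all genes were. With wounding 12 rose and 24 fell in total RNA, or 6.82% and 13.6%, where 8.39% and 7.20% of all genes did. In cortical RNA 2 rose and 0 fell, or 1.14% of the 176, where 1.60% of all genes rose. With wounded total replicate 1 left out, the counts higher and lower were 15 and 49, 32 and 32, 26 and 37, and 13 and 7 in the same order. The shares of all genes in that fit were 10.1% and 12.3%, 12.1% and 12.6%, 13.4% and 11.5%, and 5.47% and 3.60%. The interaction called 0 by edgeR, with 18 at an unadjusted p under 0.05. Without that library it called 8 higher and 2 lower, where 1.06% of all genes were higher and 1.88% lower. The 10 were Clk1, Gemin6, Lsm6, Pcbp2, Ptbp1, Rbm3, Rbm5, Snrnp48, Tra2a and Tra2b. Among 61 SR kinases, SR-like proteins and alternative splicing regulators, 12 fell and 2 rose with wounding in total RNA, or 19.7% and 3.28%. Of all genes 7.20% fell and 8.39% rose. Leaving that library out gave 19 that fell and 5 that rose, where 11.5% of all genes fell and 13.4% rose. With every library the largest falls were Rbm3 (-1.44, and -2.20 without that library), a cold-inducible RNA-binding protein, and Tra2b (-1.13, and -1.31), an SR-like activator. The 2 that rose with every library were Srrm1 (0.42) and Pcbp1 (0.33). Without that library Rbm5 (-1.34) fell further than Tra2b. In wounded cells 11 of the 61 were higher and 3 lower in cortical RNA with every library. Of those 11, Tnpo3 (0.74), the importer of SR proteins, and Dyrk1a (0.63), a kinase found in speckles, were furthest up. Without wounded total replicate 1, 20 were higher and 3 lower, where 12.1% and 12.6% of all genes were. Of those 20, Rbm3 (1.14), Rbm5 (0.80) and Clk1 (0.76) were furthest up.

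A list of 29 held further proteins of the snRNPs or associated with them, some of the minor U11/U12 snRNP. In unwounded cells 6 of these were lower and 1 higher in cortical RNA, where 7.59% and 6.62% of all genes were. The same shares apply to the lists that follow. Zmat5 (-0.99), a U11/U12 protein, and Txnl4a (-0.68) were furthest down, and Snrnp70 (0.52), the U1 70K protein, was up. Of 25 Lsm ring and SMN complex genes, 6 were lower and 1 higher, led by Smn1 (-0.74), whose product loads Sm rings onto snRNAs, and Lsm5 (-0.72), with Gemin5 (0.37) up. Of 32 genes of the Prp19 complex and catalytic spliceosome, 4 were lower and 3 higher, with Bud31 (-0.95) and Ppie (-0.80) down and Crnkl1 (0.83) and Cdc5l (0.78) up. Of 29 exon junction complex and export genes, 8 were lower and 2 higher, with Sap18 (-0.87) and Magoh (-0.80) down and Smg1 (0.63) and Pnn (0.57) up. The 4 lists had, with wounded total replicate 1 left out of the shared fit, 9, 11, 9 and 10 lower and 2, 1, 5 and 3 higher in the order given. Of all genes 12.3% were lower and 10.1% higher in that fit.

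Leaving out wounded total replicate 1 raised the number of members called in all 5 comparisons. With wounding in total RNA 6 rose and 25 fell, where 13.4% of all genes rose and 11.5% fell. In wounded cells 14 were higher and 19 lower in cortical RNA, where 12.1% and 12.6% of all genes were. The SR mRNAs among the 14 numbered 3. In unwounded cells 1 was higher and 29 lower in cortical RNA, where 10.1% and 12.3% of all genes were. With wounding in cortical RNA 2 rose and 5 fell, where 5.47% and 3.60% of all genes did.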

How the data were processed

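Messenger RNA from 12 libraries of mouse keratinocytes, 3 per group, was analysed from the deposited tables. Per the labels' protocols, mRNA was selected with poly-T beads and made into non-directional libraries. The submitters' processing notes name CASAVA, HISAT2 and mm10, and the counting tool and annotation release are not given in the sources used here. The deposited counts are raw fragments per gene, per the file headers and values. The deposited FPKM values were scaled by the authors for gene length and library size.

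Counts were filtered (filterByExpr), scaled with TMM factors and fitted in edgeR 4.0.16 as a quasi-likelihood model on the 4 groups over all 12 libraries (R 4.3.3), two-sided. Adjusted p-values cover the 13571 genes of each contrast. SE means the standard error of a log2 change. CPM values use the TMM-scaled library sizes. Labels call replicates biological but do not say from which cultures, so p-values measure the spread between these samples. In simulated unwounded cortical and total libraries with 2-fold changes among 13240 genes, edgeR recovered 51.8% of changed genes with 4.72% of its calls false.

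The members and lists were chosen with earlier results of these data known. Members named with per-library values are, per contrast, up to 5 called in each direction with the largest change and a mean of at least 100 counts; others appear where a family is described. From the lists outside the rule up to 2 per direction are named. Alternatives used limma 3.58.1 and DESeq2 1.42.0, among them limma-trend on FPKM as log2 with 1 or 0.1 added. Figures used python 3.11.15 and matplotlib 3.10.9. Coding lengths, decay transcripts and exon overlaps came from GENCODE M21, and promoters from RefSeq.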

Additional observations from a re-analysis of the deposited data

How the results depend on the processing

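No named member reversed its direction under the alternatives run. The counts of members called moved beyond 1.5 times in these cases. For unwounded cortical against total RNA, 21 became 13 when scaled by library size only and 36 with voom and library quality weights. For wounded cortical against total RNA, 17 became 10 when only the groups compared were fitted and 33 with voom and weights. For wounding in total RNA, 20 became 11 with only the groups compared and 37 with voom and weights. For wounding in cortical RNA, 2 became 5 with no filter, 15 with only the groups compared and 6 with voom and weights. For the interaction, 0 became 1 with DESeq2 and 10 with voom and weights. The causes were not tested, and the shares of all genes called under these alternatives are not given here. Leaving out each library in turn gave 11 to 30, 11 to 33, 13 to 31, 0 to 7 and 0 to 9 members in the same order. It gave 8 to 10 SR mRNAs lower with wounding in total RNA, and 5 to 10 and 8 to 11 Snrp mRNAs lower in cortical RNA of unwounded and wounded cells. The lowest counts of the first 3 came without unwounded total replicate 2, wounded total replicate 2 and wounded total replicate 2, and the highest of all 5 without wounded total replicate 1. Unwounded cortical replicate 1 left out gave 12 in the first comparison. Same-numbered libraries did not deviate together in every pair (correlations from -0.031 to 0.219 across 10386 genes), so the numbers were not taken to pair them. With the replicate block 1 member was higher and 18 lower, 4 and 14, 2 and 20, 0 and 2 and, for the interaction, 0 were called, with Snrpa and Srsf11 lost in unwounded cells (adjusted p = 0.0529 and 0.0648). Of the named members' values, 43 lost the threshold and 233 kept it when a library was left out, and 27 lost it and 272 kept it under the other alternatives. Depth limits Srsf4 and both untested members.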
